A study of Mus musculus with 10 samples.

Results

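The mammalian circadian clock was described here through 10 core genes, Arntl (also called Bmal1), Clock, Per1, Per2, Per3, Cry1, Cry2, Nr1d1, Nr1d2 and Dbp, in murine orthotopic pancreatic tumors. The genes were chosen by name and found in the deposited table by their mouse Ensembl identifiers, as 10 of the 55359 genes it lists. All 10 were tested, as were 24560 genes in all whose normalized counts averaged 1 or more. The samples are 5 tumors from normoglycemic mice given regular water (CTRL) and 5 from mice given water with 30% dextrose (D30), for 14 days per the study's account, and their RNA was sequenced. All tumors grew from luciferase-expressing cells of the murine pancreatic cancer line KPC K8484, after injection into the tail of the pancreas of C57BL/6 mice aged 10 weeks, and all mice lived under a 12-hour light and dark cycle. Per the methods, males and females were used in equal number, and the sex of each mouse is not given. The titles of the samples call the tumors PDX, although their source is given as KPC K8484 cells. The time of day at which tumors were collected is not given in the sources used here. Tumors are named by the column of the table that holds them, N1, N2, N4, N5 and N6 for CTRL and T1, T2, T4, T5 and T7 for D30, since the column numbers are not the replicate numbers of the samples.

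In the clock, the proteins ARNTL and CLOCK form a dimer that binds E-box sequences and switches on the Per and Cry genes, the Nr1d genes and Dbp. PER and CRY proteins build up, enter the nucleus and inhibit the dimer, which closes a loop of about a day. NR1D1 and NR1D2 (REV-ERBα and REV-ERBβ) repress Arntl through ROR elements, so that the Arntl transcript peaks in most tissues when Nr1d1 and Dbp transcripts are low, and DBP acts on D-box sequences of further genes. In peripheral tissues, feeding time, temperature and glucocorticoids are known to set the phase of this loop, and Per1 responds to glucocorticoids directly.

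The short sequences through which these proteins act were looked for in the promoters of the members. A match of letters does not show that a protein binds there, and binding was not tested. RefSeq promoter windows (GRCm38.p6, 250 bases before to 50 bases after a start site) were matched by symbol for 9 of the 10 members, in 13 windows. Per2 had no entry. Both strands were searched. The capitals mark the motif, each sequence is written 5′ to 3′ along the strand of its gene, and a motif on the other strand appears as its reverse complement. The E-box CACGTG was found in Per1, 166 bases before the start site (chr11:69098766-69098805, plus strand), and in Cry1, 60 bases before it (chr10:85185092-85185131, minus strand).
Per1: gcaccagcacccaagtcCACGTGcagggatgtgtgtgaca
Cry1: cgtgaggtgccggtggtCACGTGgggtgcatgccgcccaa

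The E′-box CACGTT, which differs from the E-box in its last base, was found in Cry1, Cry2 (chr2:92434213-92434252, minus strand) and Nr1d1 (chr11:98775383-98775422, minus strand).
Cry2: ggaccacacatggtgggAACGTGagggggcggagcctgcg
Nr1d1: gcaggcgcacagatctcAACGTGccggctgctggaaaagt

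The D-box, searched as TTATGTAA and TTACGTAA, was found in Per3 alone, as 2 copies 205 and 158 bases before the start site (chr4:151044846-151044887 and chr4:151044799-151044840, minus strand).
Per3, far copy: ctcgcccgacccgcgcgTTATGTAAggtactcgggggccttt
Per3, near copy: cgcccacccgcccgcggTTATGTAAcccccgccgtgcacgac

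The core of the ROR element, AGGTCA, searched without its flanking bases, was found in Arntl, Clock, Nr1d2 and Per1. The copy of Arntl lies 31 bases after a start site. The copy of Nr1d2 lies 77 bases before the start site (chr14:18239161-18239200, minus strand).
Nr1d2: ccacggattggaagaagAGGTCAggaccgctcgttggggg

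Of all 32851 promoter windows, 7.15% held the E-box, 4.68% the E′-box, 1.06% the D-box and 16.3% the ROR core. Counted by gene, as the members are above, the shares were 8.09%, 5.44%, 1.23% and 18.1%. Dbp held none of these letters in its window.

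The libraries were of like depth, with 29915331 to 42122304 reads per CTRL tumor and 29192261 to 37126175 per D30 tumor, so that every member had 209 reads or more in each tumor. Some tumors stood apart. The deviation of a gene from its mean over the tumors correlated with GC content by a Spearman coefficient of -0.54 in N1, -0.40 in T4 and 0.47 in T7, and between 0.04 and 0.28 in the others (12200 genes). The standard deviation of these deviations was 1.10 in T4 and 0.82 in T5, against 0.35 to 0.56 in the rest. T4 was also the only tumor with reads of Y-linked genes, 841 in all. Such reads thus did not show the equal number of males and females that the methods give. The part of sex in the values below was not tested. Summed levels of marker genes, taken as a guide to the make-up of the tumors, differed between the groups for some lists. The 6 markers of ductal or tumor epithelium summed to 193301 to 307882 normalized counts in CTRL tumors and to 312141 to 423587 in D30 tumors. As means of log2 values, 5 of the 6 were higher in D30 tumors. Epcam went the other way, with a mean of 85.1 in CTRL and 16.1 in D30 tumors (log2 fold change -3.17). It lay between 0 and 191 in every tumor. The 4 endothelial markers summed to 9483 to 16347 in CTRL and 3623 to 8094 in D30 tumors. All 4 were lower in D30 tumors as means of log2 values. Tek, however, had its highest values in T7 (692) and T1 (655), and its plain mean was 266 in CTRL and 299 in D30 tumors. The 4 macrophage markers summed to 8719 to 12978 in CTRL and 5801 to 8590 in D30 tumors. Of these 4, 3 were lower in D30 tumors, and Cd68 was higher (mean 954 in CTRL and 1226 in D30 tumors). The 6 fibroblast markers summed to 48862 to 89482 in CTRL and 11433 (T4) to 74002 in D30 tumors, and the 4 neutrophil markers to 554 to 2829 and 658 to 12590 (T5). T cell (4), B cell (3), adipocyte (4), acinar (6) and islet (4) markers had highest sums of 332, 162, 2124, 51019 and 1277 in CTRL tumors and of 148, 157, 994, 4832 and 15.0 in D30 tumors, and only the sum of islet markers was at 0 in any tumor (T1, T2, T5 and T7). Of single markers, 1 endothelial, 1 macrophage and 2 islet markers passed the threshold used below, all as lower in D30 tumors, and no marker of the other lists did, where 2.76% of all tested genes passed. No marker was at 0 in every tumor. In whole tumors, fewer cells of a type and less RNA per cell cannot be told apart, and the part of this make-up in the values below was not tested.

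Dbp had the largest difference of the 10 genes. No member passed the threshold of an adjusted p under 0.05 in limma with Benjamini-Hochberg adjustment (0 of 10), where 2.76% of all tested genes did. Dbp, Cry1 and Arntl had an unadjusted p under 0.05 (3 of 10, against 17.3% of all tested genes), and each was higher in D30 tumors. Values of the groups did not overlap for Cry1 alone (1 of 10, against 6.19% of all tested genes). As means of log2 values, 8 members were higher and Clock and Cry2 lower in D30 tumors, and the median log2 fold change of the members was 0.44, beside -0.06 over all tested genes. On the recovered reads, edgeR called 0 of 10 (2.61% of all genes), with 4 at an unadjusted p under 0.05, and DESeq2 called Dbp alone (7.97% of all genes).

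**Figure D1:**
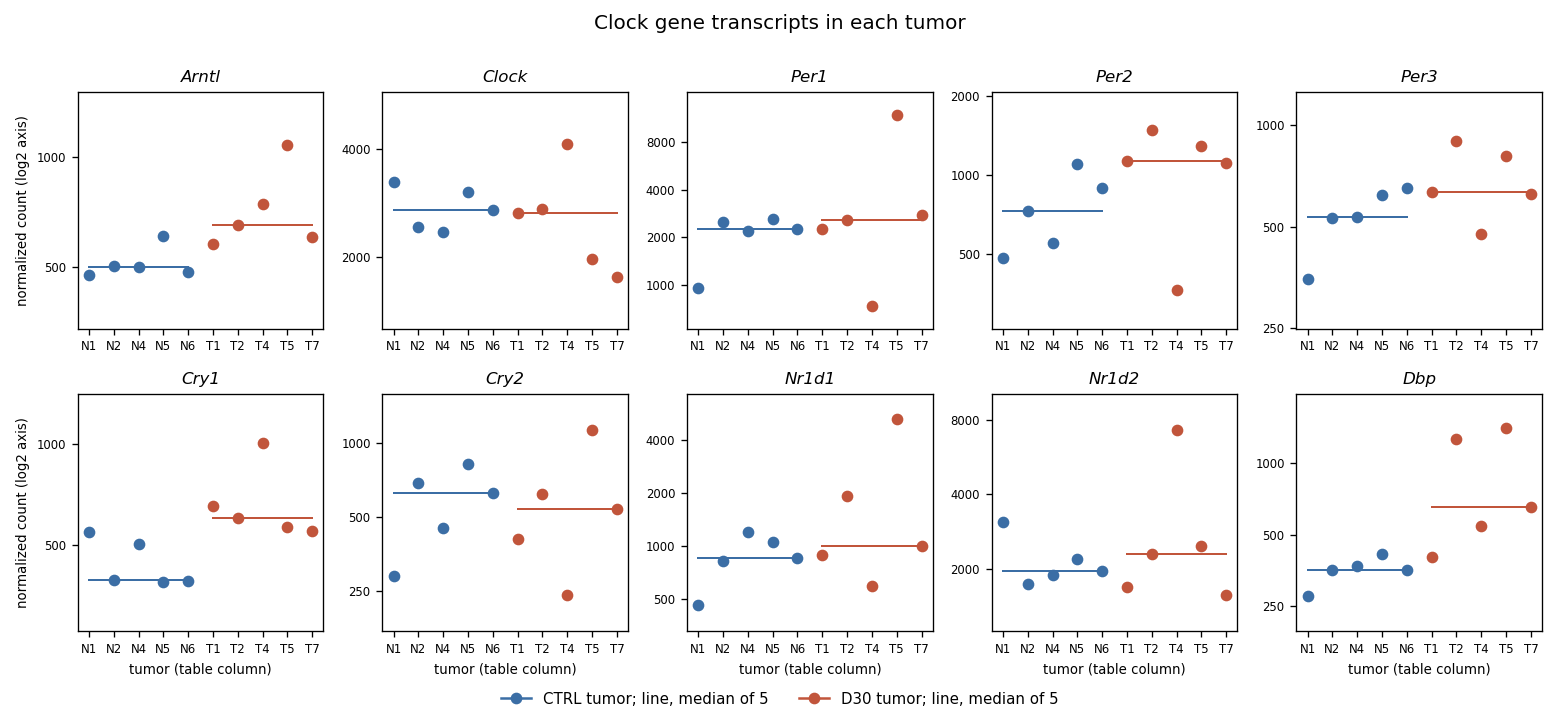
Normalized count of each clock gene (y axis, log2 scale) in each tumor (x axis, CTRL columns N in blue, D30 columns T in red), with the median of each group of 5 as a line. The groups are apart for Cry1 only, T5 is the highest tumor for Arntl, Per1, Cry2, Nr1d1 and Dbp, and T4 is the lowest for Per1, Per2 and Cry2.

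Arntl, the activator whose transcript cycles (chr7:113207465-113314126 in GRCm38, plus strand), had 473 (N1), 502 (N2), 498 (N4), 606 (N5) and 485 (N6) normalized counts in CTRL tumors. It had 578 (T1), 652 (T2), 745 (T4), 1079 (T5) and 602 (T7) in D30 tumors. The highest CTRL value, that of N5, lay above the lowest 2 D30 values, and 4 of the 5 CTRL tumors lay below every D30 tumor. This gave a log2 fold change of 0.48 (SE, the standard error, 0.209, 95% interval 0.02 to 0.93, adjusted p = 0.262 in limma), and the two-sided exact permutation test over all assignments of tumors to the groups gave p = 0.0238. The difference kept its sign in all 22 alternatives, between 0.25 without T4 and T5 and 0.57 with GC adjusted values.

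Clock, the partner of ARNTL, whose transcript changes little over the day in most tissues (chr5:76209868-76304792, minus strand), had 3247, 2417, 2353, 3044 and 2701 normalized counts in N1, N2, N4, N5 and N6. The values in T1, T2, T4, T5 and T7 were 2646, 2726, 4148, 1967 and 1759. Both the highest value (T4) and the lowest (T7) were D30 tumors. On the log2 scale Clock differed by -0.11 (SE 0.230, 95% interval -0.61 to 0.39, adjusted p = 0.852 in limma). Clock has the lowest GC content of the members (40.9%), and its log2 range over the tumors was 1.24 as deposited and 0.57 once the trend of each tumor on GC content was removed.

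Among the period genes, whose proteins inhibit the dimer, Per1 (chr11:69095217-69109960, plus strand) varied most. It had 964, 2511, 2204, 2599 and 2264 normalized counts in N1, N2, N4, N5 and N6, and 2252, 2598, 740.2, 11959.9 and 2778 in T1, T2, T4, T5 and T7. Of the 10 tumors, 7 lay between 2204 and 2778, N1 and T4 lay below 1000 and T5 lay 4.31 times above the next tumor. The log2 fold change of 0.44 (SE 0.559, 95% interval -0.77 to 1.65, adjusted p = 0.739 in limma) was 0.91 without T4 and -0.10 without T5.

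Per2 (chr1:91415982-91459324, minus strand) had 482, 730.1, 547, 1101 and 886 normalized counts in the CTRL tumors in the same order, and 1125, 1481, 362, 1287 and 1111 in the D30 tumors. T4 was the lowest of all tumors, and the other 4 D30 tumors were the 4 highest. Per2 was higher by 0.44 on the log2 scale (SE 0.365, adjusted p = 0.583 in limma), and 0.79 (adjusted p = 0.0648) without T4. Per3 (chr4:151003652-151044665, minus strand), which carries both D-box copies shown above, had 349, 531, 536, 619.7 and 650.3 normalized counts in CTRL tumors and 633, 899, 475, 809 and 624 in D30 tumors. The groups overlapped, with T2 and T5 highest and N1 lowest, and the log2 fold change was 0.35 (SE 0.237, adjusted p = 0.481 in limma).

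The cryptochromes, the other inhibitors of the dimer, differed in pattern. Cry1 (chr10:85131700-85185064, minus strand) had 548, 395, 505, 390.4 and 393 normalized counts in N1, N2, N4, N5 and N6, and 655, 604, 1005, 567 and 551 in T1, T2, T4, T5 and T7. Every D30 tumor lay above every CTRL tumor, but T7 exceeded N1 by under 3 normalized counts. Cry1 thus differed by a log2 fold change of 0.58 (SE 0.219, 95% interval 0.10 to 1.05, adjusted p = 0.196 in limma), and the exact permutation test gave p = 0.00794, the smallest that 5 tumors against 5 allow. It ranged from 0.35 to 0.65 over the alternatives, with adjusted p from 0.0798 to 0.399.
Cry2 (chr2:92403646-92434043, minus strand) had 289, 690.4, 451, 819 and 625 normalized counts in CTRL tumors and 408, 623, 242, 1132 and 538 in D30 tumors. N1 and T4 were the lowest tumors and T5 the highest, and the log2 fold change of -0.06 (SE 0.388, adjusted p = 0.958 in limma) had a 95% interval of -0.90 to 0.78. The exact permutation test over tumors gave p = 0.881 for Cry2.

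Nr1d1 (chr11:98767932-98775333, minus strand), the main repressor of Arntl, had 463, 826, 1205, 1057 and 852 normalized counts in N1, N2, N4, N5 and N6. It had 895, 1924, 591, 5254 and 1009 in T1, T2, T4, T5 and T7. T5 lay 2.73 times above the next tumor, T2, and the other 3 D30 values fell within the range of the CTRL tumors. Between the groups Nr1d1 differed by 0.74 on the log2 scale (SE 0.491, 95% interval -0.32 to 1.80, adjusted p = 0.476 in limma), and by 0.26 without T5. Of its exonic bases, 263 (8.5%) are shared with Thra on the opposite strand, and whether reads were counted by strand is not given in the sources used here.
Nr1d2 (chr14:18204054-18239127, minus strand), its paralog, did not follow it. It had 3080, 1734, 1881, 2192 and 1958 normalized counts in CTRL tumors and 1682, 2286, 7304, 2467 and 1567 in D30 tumors, with T4 highest by 2.37 times over the next tumor, N1. T4 was the highest tumor for Nr1d2 and the second lowest for Nr1d1. The log2 fold change of 0.27 (SE 0.361, adjusted p = 0.755 in limma) was -0.11 without T4.

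Dbp (chr7:45705088-45710203, plus strand), a transcription factor driven by the dimer and a common readout of the clock, had 276, 356, 369, 414 and 357 normalized counts in N1, N2, N4, N5 and N6. It had 402, 1259, 542, 1401 and 652 in T1, T2, T4, T5 and T7. The CTRL tumors lay close together, 4 of the 5 D30 tumors lay above all of them, and T1 fell just below N5. For Dbp the log2 fold change was 1.11 (SE 0.327, 95% interval 0.40 to 1.81, adjusted p = 0.0960 in limma), and the exact permutation test gave p = 0.0159. Dbp passed the threshold with DESeq2 on the recovered reads (1.26, adjusted p = 0.00700). In limma it passed without T1 (1.34, adjusted p = 0.0413, with 2.39% of all genes called) and without T4 (1.23, adjusted p = 0.0421, with 6.23% of all genes called). It did not pass with edgeR (adjusted p = 0.0649) or with GC adjusted values (adjusted p = 0.0696, with 3.37% of all genes called), and over the 22 alternatives its log2 fold change stayed between 0.88 and 1.34 with adjusted p from 0.00700 to 0.209. Its exons share 539 bases with Sphk2 on the opposite strand.

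**Figure D2:**
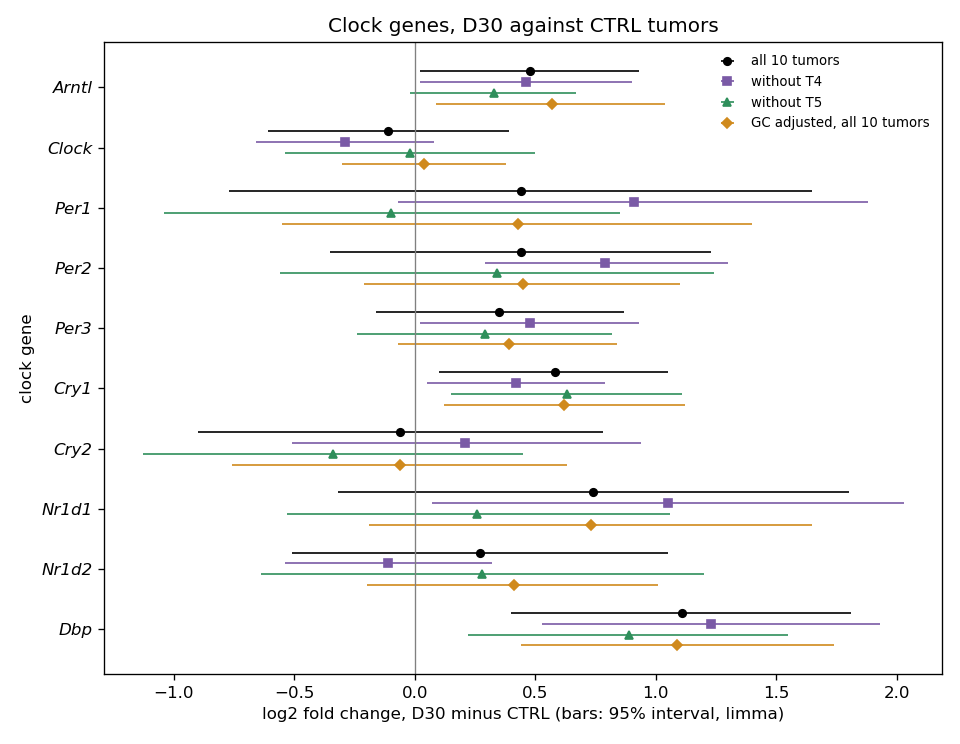
Log2 fold change of each clock gene, D30 minus CTRL (x axis, bars are 95% intervals from limma), with all 10 tumors, without T4, without T5 and after GC adjustment. Dbp and Cry1 lie above 0 in all 4 settings with intervals that exclude 0, while Per1 runs from -0.10 without T5 to 0.91 without T4.

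The extremes of the members fell on few tumors. T5 was highest in 5 members (Arntl, Per1, Cry2, Nr1d1 and Dbp). T4 was highest in 3 (Clock, Cry1 and Nr1d2) and lowest in 3 (Per1, Per2 and Cry2). N1 was lowest in 4 (Arntl, Per3, Nr1d1 and Dbp), and T2 was highest in Per2 and Per3. The members of higher GC content (Dbp 61.6%, Per1 59.4%, Nr1d1 56.8% and Cry2 55.6%) were all low in N1, where GC-rich genes as a whole were low, and Clock and Nr1d2 (41.8%) were high there. After GC adjustment, T5 was still the highest tumor for the same 5 members, and T4 still the highest for Clock, Cry1 and Nr1d2 and the lowest for Per1, Per2 and Cry2. N1 stayed the lowest for Arntl, Per3 and Nr1d1, while for Dbp it moved from the lowest place to the seventh highest. The log2 range of Per1 over the tumors went from 4.01 to 3.19, that of Nr1d1 from 3.50 to 3.05 and that of Nr1d2 from 2.22 to 1.71, whereas that of Arntl went up from 1.19 to 1.46 and that of Cry1 from 1.36 to 1.57.

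**Figure D3:**
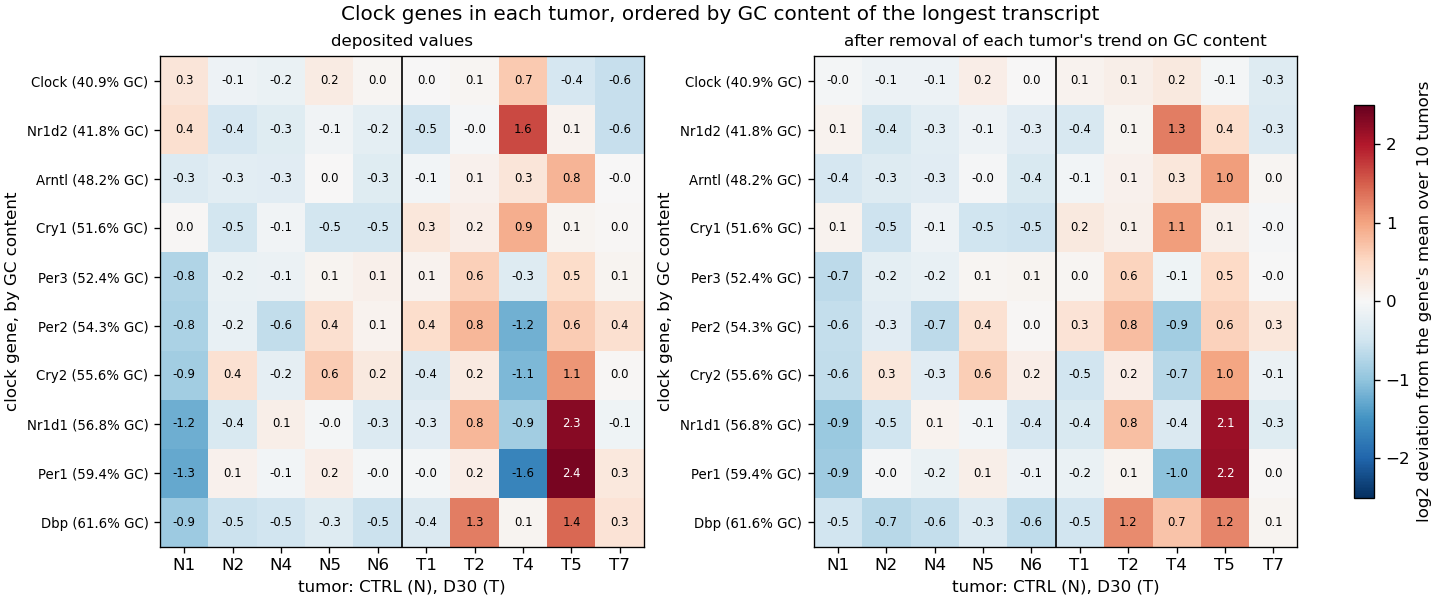
Log2 deviation of each clock gene from its mean over the 10 tumors (colour and printed value), with genes as rows in order of GC content and tumors as columns, CTRL left of the line and D30 right of it. The left panel holds deposited values and the right panel values after removal of each tumor's trend on GC content, and in both T5 is highest for Per1 and Nr1d1 and T4 for Nr1d2.

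The spread between tumors of a group differed between members. As a standard deviation on the log2 scale it was 1.09 for Per1 and 0.945 for Nr1d1, above 96.7% and 94.2% of the 12215 genes averaging 100 or more normalized counts, whose median was 0.434. Cry2, Nr1d2, Per2 and Dbp followed with 0.713, 0.671, 0.670 and 0.572. Clock (0.370), Per3 (0.356), Cry1 (0.30) and Arntl (0.276) lay below the median of these genes. Arntl and Cry1 thus had the tightest values of the members, and Per1 and Nr1d1 the widest.

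Levels of different genes were compared per kilobase of exon and after scaling each tumor to the same total of reads (RPKM). In medians over the 10 tumors, the order was Per1 (13.5), Nr1d2 (11.9), Nr1d1 (9.31), Clock (5.86), Per2 (5.24), Cry1 (4.76), Dbp (4.09), Cry2 (2.72), Arntl (2.29) and Per3 (1.92). Dbp was above Cry2 in all 10 tumors. The other neighbours in this order changed places in 2 to 6 tumors, and Cry1 exceeded Dbp in only 4 tumors although its median was higher. On this scale the repressor Nr1d2, at 8.45 or more, exceeded its target Arntl, at 3.75 or less, in every tumor.

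The relation of Arntl to the genes of opposite phase was looked at per tumor, since in a tissue with a running clock sampled over the day Arntl and Dbp are known to move against each other. Here Arntl and Dbp were high in the same tumors. Over the 10 tumors, Pearson's r of their log2 values was 0.83 (permutation test, p = 0.00341, adjusted p = 0.0307 over the 9 relations of Arntl computed) and Spearman's rho was 0.903 (permutation test, p = 0.000930, adjusted p = 0.00837). Without T5 and T4, the tumors farthest from the median of Arntl, r was 0.825. With the mean of each group removed, r was 0.654 and did not pass the threshold, and within a group 5 tumors are too few for a value. The relation did not pass either when N1, N2, N4, N6, T5 or T7 alone was left out, with r from 0.696 (without T5) to 0.839 (without T7), and r was 0.938 without T2. Arntl had a higher r with 1.7% of the 12215 genes than with Dbp, and its median r with those genes was -0.033.
Nr1d1 followed with r = 0.742 (permutation test, p = 0.0277, adjusted p = 0.125) and rho = 0.515, and r was 0.218 without T5 and 0.922 without T4. The r of Arntl with Per1, Per3, Cry1, Cry2, Nr1d2 and Per2 lay between 0.316 (Per2) and 0.566 (Per1), and that with Clock was -0.16. None of these 7 relations had an adjusted p under 0.05 with all 10 tumors, and that with Per2 was 0.89 without T5 and T4. The r with Per1 was 0.91 without T4 and passed the threshold there. Clock was the only member with a negative r to Arntl over all 10 tumors, but this sign was not stable. The r of Clock was 0.338 without T5 and 0.151 after GC adjustment. Without T5, r was -0.209 for Per1 and -0.193 for Cry2. The tumors also differ in the trend on GC content and in make-up as described above, whose part in these relations was not tested beyond the GC adjusted values, where r was 0.837 for Dbp and 0.856 for Nr1d1.

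**Figure D4:**
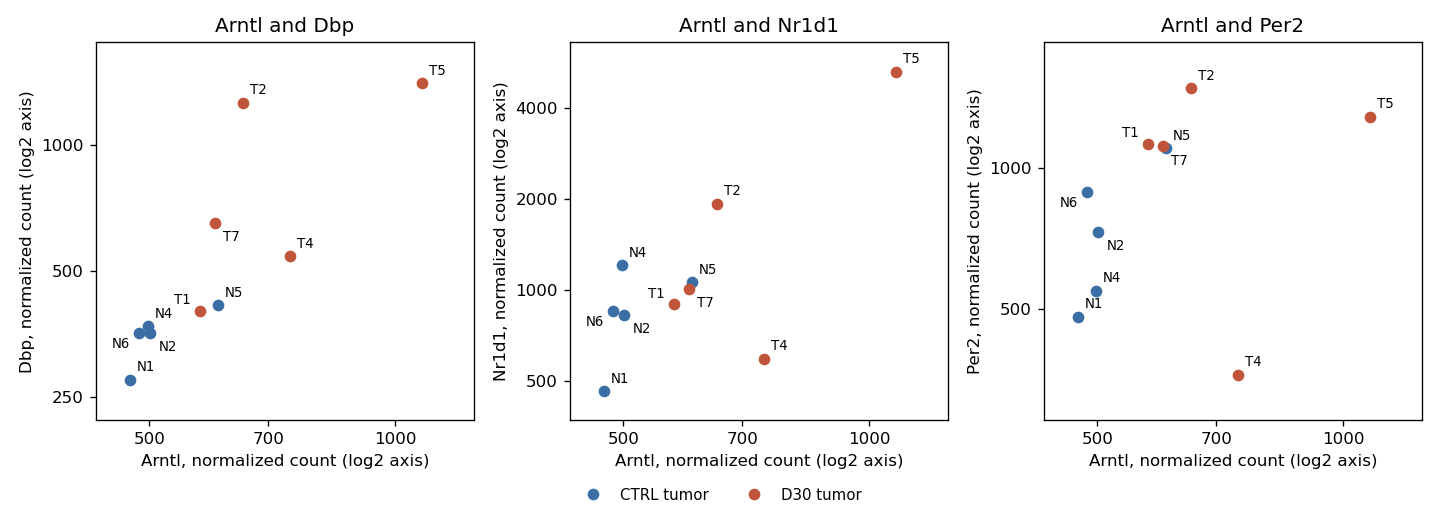
Normalized counts of Arntl (x axis) against those of Dbp, Nr1d1 and Per2 (y axes, all axes on a log2 scale), with 1 point per tumor, CTRL in blue and D30 in red. Tumors with more Arntl had more Dbp, with T5 at the top of both, while T4 combines the second highest Arntl with the lowest Per2.

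As a difference within a tumor, log2 Arntl minus log2 Dbp was 0.78, 0.49, 0.43, 0.55 and 0.44 in N1, N2, N4, N5 and N6, a mean of 0.54 ± 0.14 (SD, n = 5). It was 0.52, -0.95, 0.46, -0.38 and -0.12 in T1, T2, T4, T5 and T7, a mean of -0.09 ± 0.61 (SD, n = 5). In normalized counts, which are not corrected for length, T2, T5 and T7 had more Dbp than Arntl, and T1 and T4 lay within the CTRL range. The exons of Dbp hold 2993 bases and those of Arntl 7523, so the sign of this difference does not rank their levels. Per kilobase of exon, the median over the 10 tumors was 4.09 for Dbp and 2.29 for Arntl. Log2 Arntl minus log2 Nr1d1 was -0.71 ± 0.47 in CTRL and -0.98 ± 0.99 in D30 tumors (SD, n = 5), from -2.28 in T5 to 0.33 in T4. Log2 Arntl minus log2 Per2 was -0.49 ± 0.39 in CTRL and -0.45 ± 0.90 in D30 tumors (SD, n = 5), from -1.18 in T2 to 1.04 in T4. T4 had the highest value of all tumors in the differences from Nr1d1 and Per2, while the lowest was T5 for Nr1d1 and T2 for Per2.

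Genes with the pattern most like that of Arntl were found among 12205 genes averaging 100 or more normalized counts, by Pearson's r over the 10 tumors with group means removed. They were Creb5 (0.970), Cyp2d37-ps (0.965), Gm14286 (0.952), Pias1 (0.950) and Tollip (0.949), and T5 was the highest tumor in each, with 525 normalized counts of Creb5 against 266 in the next tumor. For Dbp they were Tspan5 (0.946), Gm12454 (0.911), Herc3 (0.901), Derl3 (0.888) and Chka (0.882).

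Of 24 further genes of the clock, compiled by hand, 1 passed the threshold, as lower in D30 tumors (2.76% of all tested genes), and 4 had an unadjusted p under 0.05 (17.3% of all tested genes). The median log2 fold change was -0.01, with 11 genes higher and 13 lower. Fbxl21, an F-box protein that acts on cryptochromes, fell. It had 95.7, 132, 47.5, 99.2 and 68.5 normalized counts in N1, N2, N4, N5 and N6, and 24.7, 28.6, 17.3, 18.3 and 24.5 in T1, T2, T4, T5 and T7. The groups did not overlap, with the lowest CTRL tumor, N4, well above the highest D30 tumor, T2. Its log2 fold change was -1.86 (SE 0.358, adjusted p = 0.0149 in limma).

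The calls among these 24 genes depended on single tumors. Fbxl21 did not pass without N2 (-1.70, adjusted p = 0.0658, with 1.10% of all genes called) or without N5 (-1.80, adjusted p = 0.0527, with 1.37%) in limma. Without T5, Bhlhe41 also passed as lower in D30 tumors (2 of 24, with 3.32% of all genes called), and without T4 and T5 Bhlhe41 passed as lower (-0.85) and Bhlhe40 as higher (0.78) in D30 tumors (3 of 24, with 8.57%). Without N1 and T4, Nampt passed beside Fbxl21 (2 of 24, with 6.36%). Bhlhe40 and Bhlhe41, the DEC proteins, compete with the dimer for E-boxes, and with all tumors they did not pass. Bhlhe40 had 4619, 5122, 8269, 5096 and 4792 normalized counts in CTRL tumors and 9234, 9504, 7661, 46813 and 9381 in D30 tumors. T5 stood far above the others, and only T4 among the D30 tumors lay below a CTRL tumor, N4. Its log2 fold change was 1.19 (adjusted p = 0.164 in limma) and 0.71 without T5.

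By role, and with all tumors, the calls fell as follows. Of the 4 genes of the activating arm none passed, and Arntl2, the paralog of Arntl, had a log2 fold change of -0.42 (adjusted p = 0.222 in limma). Of the 7 modulators of transcription none passed, and Nfil3, the repressor that shares the D-box with DBP, had a log2 fold change of 0.94 (adjusted p = 0.313 in limma) with 3441 normalized counts in T5 against 350 to 667 elsewhere. Of the 8 kinases, ligases and their partners Fbxl21 alone passed. Of the 5 outputs none passed. Among these, Nampt, an enzyme of NAD synthesis, had a log2 fold change of 0.78 (adjusted p = 0.249 in limma), with T4 highest, and Usp2 had one of -0.66 (adjusted p = 0.398 in limma).

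**Figure D5:**
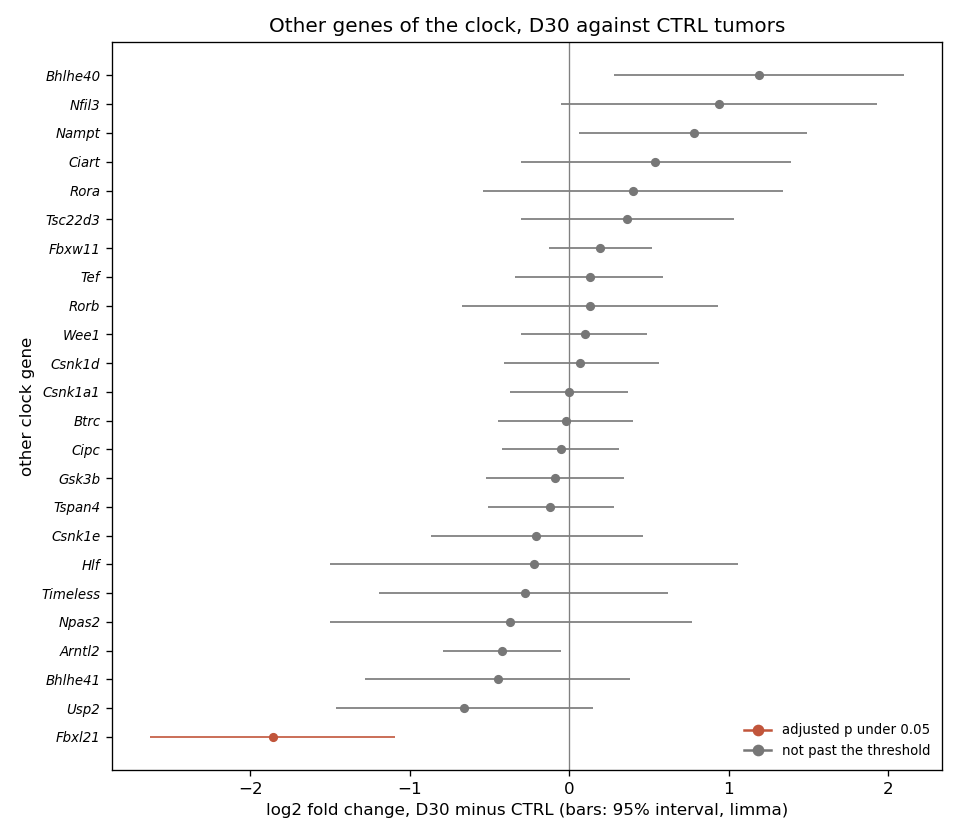
Log2 fold change, D30 minus CTRL (x axis, bars are 95% intervals from limma), of the 24 further clock genes, in order of size. Fbxl21 (-1.86), in red, is the only 1 of them with an adjusted p under 0.05, and of the other intervals, in grey, those of Bhlhe40, Nampt and Arntl2 exclude 0.

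Genes that answer to glucocorticoids, a hormonal input to Per1, were listed as 8 genes (Tsc22d3, Fkbp5, Zbtb16, Klf9, Sgk1, Dusp1, Mt1 and Mt2). None passed the threshold in limma (0 of 8, against 2.76% of all tested genes), 2 had an unadjusted p under 0.05 (Mt1 and Mt2, against 17.3%), and DESeq2 called both (against 7.97%). For Zbtb16 and Dusp1, DESeq2 gave no adjusted p. Of the 8 genes 7 were higher in D30 tumors, and Fkbp5 was lower (log2 fold change -0.43, adjusted p = 0.547 in limma). The median log2 fold change of the 8 was 0.68, beside -0.06 over all tested genes. This rested on T5 and T4, as the median of the 8 was 0.23 without T5 and -0.06 without both. T5, the tumor with the highest Per1, had 8463 normalized counts of Sgk1 against 1341 to 3406 elsewhere, 11543 of Dusp1 against 530 to 1390, and 327 of Zbtb16 against 1.05 to 20.8. Klf9 was at 6650 in T5 and at 2917 to 4036 elsewhere, Fkbp5 at 9563 in T5 and at 2252 (T4) to 8614 elsewhere, and Tsc22d3 at 5819 in T5, second to 7829 in T4. Mt1 and Mt2, metallothioneins that also answer to metals, had log2 fold changes of 1.42 (adjusted p = 0.0803) and 3.17 (adjusted p = 0.0993) in limma, with T5 at 94570 and 711 normalized counts. Without T5 these were 1.02 and 2.35. Dusp1 is also an immediate early gene that many stimuli raise, and the part of hormone, stress or tissue handling in these values was not tested.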

How the data were processed

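RNA was taken from 10 orthotopic tumors, and strand-specific libraries (NEBNext Ultra II Directional) were read in pairs on a NovaSeq. Per the methods, the authors trimmed reads with Trim Galore and aligned them with STAR 2.7.0e, to hg38 by the methods and to GRCm39 by the submitters' processing notes. The deposited signal per gene and tumor is a read count scaled by 1 size factor per tumor, as DESeq2 gives, which the authors used, and 100.0% of the values gave whole reads once that factor was undone (tolerance 0.01). The annotation release and the counting settings are not given in the sources used here. CTRL columns were matched by their letter N and D30 columns by T as the only other group.

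Identifiers without version were matched to GENCODE M21 (GRCm38), which named 94.1% of them. The test was limma's moderated test (3.58.1, R 4.3.3) with a mean-variance trend on log2(normalized count + 1), over the 24560 genes with a mean of 1 or more, with Benjamini-Hochberg adjustment and a threshold of 0.05. Fold changes on this scale understate those of low genes. As alternatives, the recovered reads were tested with edgeR (4.0.16, quasi-likelihood) and DESeq2 (1.42.0). The scripts were tested on simulated counts, and single genes were compared by two-sided exact permutation over tumors. Correlations used 100000 permutations. GC adjustment removed a loess curve (span 0.3) of each tumor's deviations on GC content, which 99.0% of tested genes had. No pair of tumors of the same group agreed within sampling noise, and pairs across the groups were not checked. The labels give biological replicates.

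The 10 members and the lists were chosen with earlier results of these data known. By rule, the text names the members, up to 8 further clock genes called or with the smallest p, the glucocorticoid-responsive genes and the 5 genes most like Arntl and Dbp. Some clock genes beside the 24 counted are not reported here. Bhlhe41 was named after its values were seen. Alternatives covered the pseudocount, the filter on low values, the scaling, the test and leaving out each tumor. GC adjustment and the removal of pairs of tumors were added after seeing the data.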

Additional observations from a re-analysis of the deposited data

Results flagged for a closer look

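For 24 genes named by rule, 48 groups of 5 tumors were looked at. In 16 of them the highest or the lowest tumor lay apart from the others (gap to the nearest tumor over 0.71 of the range of the group). The gaps were taken on normalized counts, not on log2 values, and no chance rate was computed for them. The groups are not independent, since they share the same tumors. T5 was this tumor in 9 of the 16, T4 in 3, N1 in 2, and N4 and N5 in 1 each.

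Among the clock members, T5 stood above the other D30 tumors in Per1 (11959.9 normalized counts, next 2778) and Nr1d1 (5254, next 1924). T4 stood above them in Cry1 (1005, next 655) and Nr1d2 (7304, next 2467). Among CTRL tumors, N5 stood above the others in Arntl (606, next 502) and N1 below the others in Per1 (964, next 2204).

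Among the further clock genes, T5 stood apart in Bhlhe40 (46813, next 9504) and Nfil3 (3441, next 667), T4 in Nampt (10045, next 4428), and the CTRL tumor N4 in Bhlhe40 (8269, next 5122). Among the glucocorticoid-responsive genes, T5 stood apart in Zbtb16 (327, next 20.8), Klf9 (6650, next 3888), Dusp1 (11543, next 1390.2), Mt1 (94570, next 31024) and Mt2 (711, next 76.3). In Fkbp5 the CTRL tumor N1 lay below the others (4497, next 7919). The neutrophil markers also had their highest sum in T5, and the part of this in these values was not tested.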

How the results depend on the processing

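The number of clock members past the threshold was 0 in limma with all tumors and 1 (Dbp) with DESeq2, and 0 to 1 when single tumors were left out. Among the further clock genes it was 1 of 24, 0 to 2 when single tumors were left out, 2 without N1 and T4 and 3 without T4 and T5. Of the glucocorticoid-responsive genes 0 of 8 passed, and 2 with DESeq2. DESeq2 gave no adjusted p for Zbtb16, Dusp1, Bhlhe40 and Nfil3. The cause of the shifts in these numbers was not tested. The count of genes past the threshold over the whole table was 678 in limma and 1957 with DESeq2, and ran from 270 without N2 to 1530 without T4, with 2105 without T4 and T5.

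Directions turned for few members, none of them past the threshold. Left out tumors moved Clock between -0.29 and 0.02, Per1 between -0.10 and 0.91, Cry2 between -0.34 and 0.21 and Nr1d2 between -0.11 and 0.44 on the log2 scale. Clock was at 0.04 after GC adjustment, Cry2 at 0.02 with edgeR and 0.03 with DESeq2, and Nr1d2 at -0.22 without T4 and T5. Without T4 and T5, Tsc22d3 was at -0.14, Klf9 at -0.07, Sgk1 at -0.40 and Dusp1 at -0.06. Klf9 was at -0.05 with library-size scaling, and left out tumors moved it between -0.01 and 0.28 and Sgk1 between -0.13 and 0.54. The cause was not tested. Library-size scaling moved the median of all tested genes from -0.06 to -0.27 and that of the members from 0.44 to 0.22. Arntl, Per2, Per3, Cry1, Nr1d1 and Dbp were higher in D30 tumors in all 22 alternatives.

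Of the 9 relations of Arntl, 1 passed as reported, 2 with library-size scaling (Nr1d1 and Dbp), 2 after GC adjustment (Nr1d1 and Dbp), 0 with group means removed and 0 to 3 when single tumors were left out, where 9 tumors remain. The 3 were those with Per1, Nr1d1 and Dbp, without T4. No paired analysis was possible because the columns carry numbers that are not the replicate numbers of the samples. GC adjustment and the removal of 2 tumors at once were chosen after seeing the data. With 5 tumors a group, the 95% intervals of Per1 and Nr1d1 span more than 2 log2 units, which limits what could be detected in these genes.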
